A study of Danio rerio with 6 samples.

Results

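Amacrine cells of the tfap2 type were followed in single-cell RNA-seq of zebrafish eyes at 48 hours post-fertilisation (hpf). A cell was counted as one of them when at least 1 unique molecular identifier (UMI, a tag that counts each captured transcript once) was found in 3 or more of tfap2b, tfap2c, tfap2e, slc32a1 and pax10, when lhx1a had no UMI, and when sox2 and isl1 were not both detected. Of 5606 cells with at least 1000 genes and at most 10% mitochondrial UMIs, 639 met this rule, or 11.4% (95% Wilson interval 10.6 to 12.3%). The other 4967 cells of the same libraries were the comparison. They include cells with 3 or more of the positive genes, 378 kept out by sox2 and isl1 and 96 kept out by lhx1a. These were deep, at medians of 37109 and 73067.5 UMIs. The rule is a rebuilt gate on measured transcripts and not the annotation of the study, and numbers that depart from the study's may arise from that gate alone.

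All embryos were F1 carriers of NRE-eGFP/HS5-mCherry. In this reporter the human PAX6 enhancers NRE and HS5 drive eGFP and mCherry through gata2 promoters from a single landing pad, with insulators between them. The embryos were kept in PTU, which blocks melanin, from 12 hpf. Dissociated eyes pooled from many embryos were sorted into 3 eGFP-enriched and 3 mCherry-enriched libraries, which are replicates of the sort and not of single animals. By the study's description of the sort, the eGFP-enriched gate took cells positive for eGFP alone, whereas the mCherry-enriched gate took double-positive cells in round 1 and all mCherry-positive cells in rounds 2 and 3. No group lacks the reporter, and no wild-type library was compared.

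Amacrine cells are the inhibitory interneurons of the inner retina. They arise from dividing progenitors through a series of transcription factors, leave the cell cycle, and come to release GABA or glycine onto bipolar, ganglion and other amacrine cells. Transcription factors of the AP-2 (tfap2) family are used in vertebrates to recognise postmitotic amacrine cells, Pax6 is required in the eye from the earliest progenitors and stays on in amacrine and ganglion cells, and slc32a1 encodes the transporter that loads both GABA and glycine into vesicles.

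The libraries held between 14307132 and 86803928 UMIs over all barcodes and gave 85 to 2303 cells. Amacrine cells had a median of 8013 UMIs and 2139 genes, against 6842 UMIs in the other cells. The rule needs 3 detected genes and so favours deep cells. Of the 639 amacrine cells, 83 held more than 20000 UMIs, 66 of them in eGFP-enriched replicate 1 and 14 in mCherry-enriched replicate 1. Doublets were not removed, since the methods name no doublet caller. Markers of another class, at least 3 from 1 list, were found in 541 of the 639 cells, most often those of bipolar cells (386 cells), stem cells (262), progenitors (240) and Müller glia (190). These were 60.4, 41.0, 37.6 and 29.7% of amacrine cells, against 66.9, 35.4, 58.0 and 42.7% of the other cells. Ganglion cell markers reached 3 in 95 amacrine cells, photoreceptor markers in 77 and blood markers in 54. The shares were 14.9, 12.1 and 8.45%, against 25.2, 20.3 and 10.2% of the other cells. In mCherry-enriched replicate 2, 17 of 20 amacrine cells carried at least 3 markers of a tissue outside the retina. Of all 218 cells of that library, 13 were free of such a set. At least 3 blood markers were found there in 85.0% of amacrine and 94.4% of the other cells. Free RNA was present, since barcodes of at most 100 UMIs held the bipolar gene vsx1 at 830 to 1131 CPM (counts per 1000000 UMIs) in the 6 libraries. The same barcodes held the globin gene hbae3 at 17588 CPM in mCherry-enriched replicate 2 and at 47.3 to 7615 CPM in the rest. Of the 5606 cells, 4 barcodes occurred in more than 1 library, and 1 amacrine cell had such a barcode.

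The name was set beside a few genes outside the rule, of which elavl3 is shared with ganglion cells. Over the whole list of 35 amacrine fate factors tested below, 23 rose, 3 fell and 9 did not pass the test. Those that did not rise include foxn4 and ptf1a, and the glycine transporter gene slc6a9 was lower. At an equal depth of 2000 UMIs tfap2a was found in 67.3% of these cells and 14.7% of the other cells, gad2 in 19.9% and 2.96%, and elavl3 in 86.3% and 36.3%, whereas vsx1 was found in 39.2% and 49.9%. vsx1 was also found in 29.5% of photoreceptors and 27.5% of ganglion cells.

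The replicate 1 libraries of both sorts stood apart. The summed level of 9 ganglion cell markers in their amacrine cells was 1357 CPM (mCherry-enriched) and 1102 CPM (eGFP-enriched), close to the 1422 and 1229 CPM of the other cells of the same libraries. In amacrine cells of mCherry-enriched replicates 2 and 3 and of eGFP-enriched replicate 3 it was 101, 105 and 141 CPM, against 1909, 1416 and 1336 CPM. In mCherry-enriched replicate 2 the ganglion cell genes isl2b, pou4f1, pou4f3, rbpms2b and islr2 had no UMI in amacrine cells, and in mCherry-enriched replicate 3 pou4f3 and islr2 had none. Main gene lists are therefore also counted without replicate 1 and without cells above 20000 UMIs. The other cells of the replicate 1 libraries also held many of the deep cells kept out by sox2 and isl1 or by lhx1a. These were 242 and 84 of 1761 in eGFP-enriched and 68 and 4 of 334 in mCherry-enriched replicate 1. In eGFP-enriched replicate 3 they were 46 and 4 of 2060. Their part in the results was not tested. eGFP-enriched replicate 2 held 8 amacrine cells, under the minimum of 10 for the main comparison. Below, 5 values in a row are mCherry-enriched replicates 1, 2 and 3 and eGFP-enriched replicates 1 and 3, in CPM of the summed UMIs of the amacrine or the compared cells of a library. A higher summed level can come from more cells with the transcript or from more transcript per cell.

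The values that chose the cells are given as a description. tfap2c was detected in 84.8% of amacrine cells, tfap2b in 84.0% and tfap2e in 54.9%, against 21.3%, 18.3% and 10.3% of the other cells. slc32a1 was detected in 86.5% and pax10, a close relative of pax6 found in fish, in 87.6%, against 17.9% and 23.6%. In 380 cells gated as photoreceptors (5 or more of 10 photoreceptor markers), which should lack these genes and whose gate also allowed fewer than 2 of the 5, the shares were 9.47% for tfap2c, 4.21% for tfap2b, 2.11% for tfap2e, 1.05% for slc32a1 and 8.16% for pax10, at a median of 7748 UMIs. In cells gated as ganglion cells pax10 was found in 33.6% and slc32a1 in 3.09%, at a median of 6692 UMIs. Of the excluding genes, isl1 was present in 33.3% of the amacrine cells and sox2 in 8.92%.

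All 5 positive genes were detected together in 217 amacrine cells (34.0%), 4 in 192 and 3 in 230. The most frequent set of 4 was tfap2b, tfap2c, slc32a1 and pax10 without tfap2e, with 112 cells. The most frequent sets of 3 were tfap2c, slc32a1 and pax10 (57 cells) and tfap2b, slc32a1 and pax10 (50 cells). When members were chosen by the other 4 genes alone, tfap2e was still the least often found, in 50.8% of 585 cells, against 79.6% for tfap2b, 80.0% for tfap2c, 81.4% for slc32a1 and 83.3% for pax10.

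Levels changed across the boundary of the rule. Cells just outside had exactly 2 of the genes and met the same conditions on lhx1a, sox2 and isl1 (485 cells). With UMIs pooled over libraries, they held tfap2a at 242 CPM and cells just inside, with 3, at 535 CPM. pax6a stood at 1136 and 1402 CPM, the GABA-synthesis gene gad2 at 37.8 and 71.3 CPM, and the nuclear receptor gene nr4a2b at 3.5 and 33.2 CPM. The replication gene pcna went the other way, from 425 to 219 CPM. Cells with all 5 genes held tfap2a at 1304 CPM, gad2 at 134 CPM, nr4a2b at 230 CPM and pcna at 129 CPM. The levels of the neuronal RNA-binding gene elavl3 were 1142, 1268 and 2169 CPM with 2, 3 and 5 genes. pax6a did not keep rising, with 1432 CPM at 4 genes and 1257 CPM at 5, and eGFP stood at 46.8, 69.3, 40.7 and 43.4 CPM with 2, 3, 4 and 5 genes.

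The sort raises the question whether amacrine cells took a different share of either population. They made up 11.2% of 376 cells (Wilson interval 8.37 to 14.8%), 9.17% of 218 (6.02 to 13.7%) and 10.1% of 597 (7.89 to 12.7%) in mCherry-enriched replicates 1 to 3. In eGFP-enriched replicates 1 to 3 the shares were 13.1% of 2027 cells (11.7 to 14.7%), 9.41% of 85 (4.85 to 17.5%) and 10.6% of 2303 (9.36 to 11.9%). The groups overlapped. The mean was 10.1% ± 1.00 (SD, n = 3) in the mCherry-enriched and 11% ± 1.90 (SD, n = 3) in the eGFP-enriched libraries, a difference of -0.897 percentage points (exact two-sided permutation test, p = 0.6, smallest possible 0.1). With libraries paired by replicate number the differences were -1.95, -0.237 and -0.501 points, lower on the mCherry-enriched side in 3 of 3 pairs, and the exact p was 0.25, the smallest that 3 pairs allow. The intervals cover counting error alone. Without eGFP-enriched replicate 1 the difference was 0.15 points. Among cells with at least 1500 genes the sorts were apart, with 11.9, 12.2 and 11.1% in the mCherry-enriched and 15.13, 16.2 and 13.5% in the eGFP-enriched libraries, a difference of -3.19 points (exact p = 0.1, the smallest possible).

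**Figure D1:**
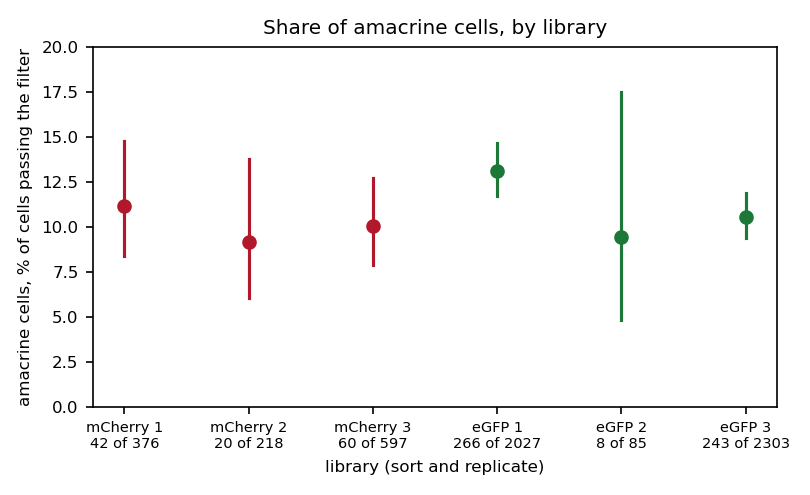
Share of amacrine cells among cells passing the filter in each of the 6 libraries, in percent, with 95% Wilson intervals as bars and the cell numbers under each library. The mCherry-enriched libraries lie between 9.17% and 11.2% and the eGFP-enriched ones between 9.41% and 13.1%, so the sorts overlap at the filter of 1000 genes.

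In amacrine cells, 23 of 35 amacrine fate factors, the GABA-synthesis genes gad1b and gad2 and 8 of 24 vesicle release genes rose over the other cells of the same library, whereas 21 of 21 cell cycle genes and 15 of 18 Notch genes fell. List counts here and below are of gene IDs. The 34 fate factor, 20 cell cycle and 17 Notch symbols measured gave 35, 21 and 18 tested IDs. Of 9846 genes tested outside the rule, 435 were higher in amacrine cells (4.42%) and 894 lower (9.08%), at an adjusted p under 0.05 in edgeR's quasi-likelihood test with the library as a block. The median log2 fold change over all tested genes was -0.04. The number of calls depended on single libraries: leaving out mCherry-enriched replicate 3 left 30 higher and 61 lower, leaving out mCherry-enriched replicate 2 left 240 and 338, and leaving out eGFP-enriched replicate 3 left 167 and 376. Of 66 called genes followed across the settings, 44 lost their call without mCherry-enriched replicate 3, 18 without mCherry-enriched replicate 2 and 8 without eGFP-enriched replicate 3, with no change of direction under these 3 omissions. Without the replicate 1 libraries, of 8728 genes tested, 699 were higher and 1650 lower, and without cells above 20000 UMIs, of 8730 genes tested, 773 (8.85%) and 1494 (17.1%). List counts given below for these settings stand beside these larger counts over all genes.

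The Pax6 and AP-2 genes outside the rule came first. tfap2a, the AP-2 gene known in zebrafish from neural crest and epidermis as well as retina, stood in amacrine cells at 601, 646, 1423, 682 and 1315 CPM, against 177, 122, 109.7, 212 and 98.7 CPM in the other cells. It was higher in every library, with no overlap, and the log2 fold change was 2.59 (SE 0.34, adjusted p = 0.00862). The levels were higher in replicate 3 of both sorts than in replicates 1 and 2.

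pax6a was measured at 1227, 1096, 1621, 1261 and 1552 CPM in amacrine cells and at 644, 500.1, 455, 745 and 383 CPM in the others. pax6b was measured at 1357, 1499.9, 1564, 1198 and 1457 CPM and at 646, 544, 512, 801 and 412 CPM. Neither gene's ranges overlapped, and the lowest ratios were in the replicate 1 libraries, where the other cells were highest. The log2 fold changes were 1.27 (SE 0.19, adjusted p = 0.0109) for pax6a and 1.24 (SE 0.16, adjusted p = 0.00797) for pax6b. These are the zebrafish co-orthologues of the gene whose human enhancers drive the reporters. tfap2d, the remaining AP-2 gene tested, fell, from 86, 115, 62.2, 72 and 53.3 CPM in the other cells to 46.6, 26.9, 19.8, 51.8 and 25.3 CPM in amacrine cells (log2 -1.08, adjusted p = 0.0215). With at least 2 genes of the rule as the gate the log2 value of tfap2d was -0.25 and no longer passed the test.

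**Figure D2:**
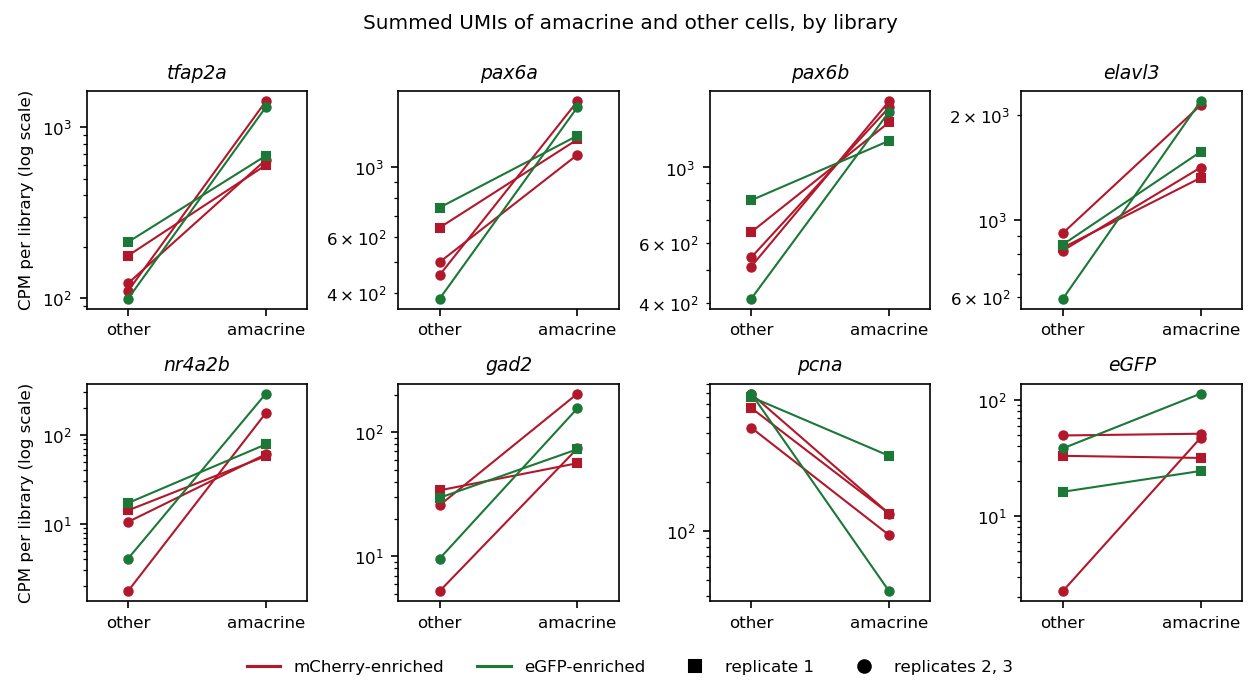
Level of 8 genes in the summed UMIs of amacrine and other cells, in CPM on a log scale, with 1 line per library (red mCherry-enriched, green eGFP-enriched, squares replicate 1, circles replicates 2 and 3). tfap2a, pax6a, pax6b, elavl3, nr4a2b and gad2 rise and pcna falls along all 5 lines, whereas eGFP is higher in amacrine cells in 4 of 5 libraries.

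Of 35 tested amacrine fate factors, a list of transcription factors and cofactors known in amacrine development, mostly from mouse, 23 were higher, 3 were lower and 9 did not pass the test. Without replicate 1 24 were higher and 7 lower of 34, and without cells above 20000 UMIs 20 and 7 of 33. Their median log2 fold change was 1.63, beside -0.04 over all genes. The nuclear receptor genes nr4a2a and nr4a2b, whose mouse counterpart marks a GABA-releasing amacrine subset, were the most raised. nr4a2b stood at 57.6, 60.5, 176, 78.1 and 289.7 CPM against 14.2, 10.5, 1.76, 17.1 and 4.07 CPM (log2 3.71, SE 0.77, adjusted p = 0.0216). nr4a2a stood at 60.4, 33.6, 204, 37.2 and 142 CPM against 9.86, 2.25, 1.76, 9.18 and 1.84 CPM (log2 4.04, SE 0.76, adjusted p = 0.0179). Within amacrine cells both genes were highest in replicate 3 of either sort, and in the replicate 1 libraries the other cells were also higher than in replicate 3.

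The POU homeodomain gene pou3f3b stood at 60.4, 269, 306, 145 and 226 CPM against 25.8, 7.51, 26.7, 31.1 and 18.3 CPM, and its paralogue pou3f3a rose by a log2 value of 2.3 (pou3f3b 2.94). lmo4b, which encodes a LIM-only cofactor, stood at 259, 639, 768, 335 and 819 CPM against 105, 59.3, 56.6, 87.3 and 72.5 CPM (log2 2.71). The neuronal repressor gene scrt1a stood at 240.1, 565, 354, 218 and 303 CPM against 65.2, 42.8, 31.7, 91.3 and 32.2 CPM (log2 2.61). For all 3 the amacrine cells of mCherry-enriched replicate 1 were at or near the low end, and no value of the other cells reached them. Homeobox genes of the TALE class, which act as cofactors of other homeodomain proteins, also rose, among them meis2a, held under 2 gene IDs that may share reads, by 2.01 and 2.6, pbx1b by 2.03, pbx1a by 1.52 and pbx3a by 3.3 on the log2 scale, whereas pbx3b did not pass the test (log2 0.69, adjusted p = 0.0537).

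barhl2, a homeobox gene needed for amacrine subtypes in mouse, stood at 402, 457, 533, 339 and 641 CPM against 154, 131, 111, 169.7 and 103 CPM (log2 1.75). bhlhe22, a bHLH repressor of amacrine and bipolar subtypes in mouse, stood at 392, 619, 808, 530.2 and 1146 CPM against 234, 120.2, 174, 259 and 162 CPM (log2 1.76). Neither gene's ranges overlapped, and eGFP-enriched replicate 3 was highest for both.

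The LIM homeobox gene lhx9 stood at 137, 135, 295, 169 and 303 CPM against 74.6, 14.3, 38.1, 62.2 and 34.3 CPM (log2 2.19). gbx2, a homeobox gene that marks an amacrine subtype in mouse, stood at 75.5, 40.4, 139, 88.7 and 191 CPM against 21.6, 6.01, 20.5, 29.2 and 30.9 CPM (log2 2.18). In amacrine cells both were highest in eGFP-enriched replicate 3, and mCherry-enriched replicate 2 had the lowest values in either set. After thinning to 2000 UMIs, lhx9 was found in 27.6% of amacrine and 2.89% of photoreceptor cells, gbx2 in 12.8% and 0.263%, nr4a2b in 13.3% and 0.263%, and nr4a2a in 10.9% of amacrine and 0.351% of ganglion cells. The T-box gene tbx3a, with 125, 316, 229.5, 190.5 and 325 CPM against 63.2, 36, 31.7, 52.8 and 28.3 CPM, rose by 2.39, the leucine zipper gene mafb by 2.18 and the bHLH genes nhlh2 and neurod2 by 1.78 and 1.63. mab21l1 and mab21l2, eye development genes, rose by 1.36 and 1.41. neurod1, a bHLH gene shared with photoreceptors, had the smallest of these rises, 0.57, which was lost without cells above 20000 UMIs (log2 0.43, adjusted p = 0.07).

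The early acting factors did not move as a block. prdm13, a zinc finger gene downstream of Ptf1a in mouse, rose, with 184, 478, 85, 146 and 175 CPM against 56.7, 64.6, 46, 79.3 and 51.8 CPM (log2 1.55, adjusted p = 0.0128), and mCherry-enriched replicate 2 was the highest library. Among cells with at least 4 genes of the rule prdm13 no longer passed the test (log2 0.49). ptf1a, the bHLH gene that commits progenitors to amacrine and horizontal fates, stood at 11, 53.8, 19.8, 22.9 and 41.1 CPM against 15, 22.5, 6.74, 15.3 and 12.6 CPM. Its ranges overlapped and it did not pass the test (log2 0.88, adjusted p = 0.0901), whereas without replicate 1 it did (log2 1.52, adjusted p = 0.00192).

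The progenitor factors foxn4, which acts upstream of ptf1a, insm1a and neurod4 fell. foxn4 stood at 191, 33.6, 48.2, 115 and 23.8 CPM in amacrine cells against 277, 96.9, 188, 218 and 108 CPM (log2 -1.39, adjusted p = 0.0181). Both sets were highest in the replicate 1 libraries, so the ranges overlapped, and amacrine cells were lower in every library. insm1a had a log2 value of -1.28 and neurod4 of -1.12. atoh7, needed for ganglion cells, stood at 202, 40.4, 17, 109 and 20.8 CPM against 172, 93.9, 235, 151 and 159.5 CPM and did not pass the test (log2 -1.45, adjusted p = 0.117); without replicate 1 its log2 value was -2.96 (adjusted p = 3.31e-05).

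Genes of GABA synthesis and uptake rose. Of 5 GABA genes tested, 3 were higher and 0 lower, with a median log2 value of 2.05, and of 2 glycine genes 0 were higher and 1 lower. gad2, which encodes a glutamate decarboxylase that makes GABA, stood at 56.3, 74, 204, 72.9 and 155 CPM against 34, 5.26, 25.8, 29.6 and 9.6 CPM (log2 2.35, SE 0.49, adjusted p = 0.0219). The ratio was smallest in mCherry-enriched replicate 1, and no other-cell value reached the lowest amacrine value. gad1b, the second decarboxylase, stood at 22, 13.5, 45.3, 20.4 and 35.7 CPM against 11.8, 3.0, 6.16, 8.12 and 3.36 CPM (log2 2.05, adjusted p = 0.0193). The plasma membrane GABA transporter gene slc6a1a stood at 12.3, 6.73, 36.8, 22.6 and 50.0 CPM against 6.78, 0, 4.4, 6.12 and 3.47 CPM (log2 2.48, adjusted p = 0.0177). For gad1b the ranges were apart, whereas for slc6a1a they overlapped through mCherry-enriched replicate 2, whose amacrine cells held 1 UMI.

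slc6a9, the glycine transporter gene used to recognise glycine-releasing amacrine cells and also active in Müller glia, was lower in amacrine cells, with 11, 6.73, 17, 35.9 and 21.8 CPM against 32.4, 17.27, 39.9, 51.1 and 29.6 CPM (log2 -0.84, adjusted p = 0.0381). Amacrine cells were lower in 5 of 5 libraries, the ranges overlapped, and 12 of 20 alternative settings ended the call, among them leaving out any library but eGFP-enriched replicate 1. With every cell thinned to 2000 UMIs the log2 value of slc6a9 was -0.29 (adjusted p = 0.585).

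Of 24 tested genes of vesicle release, 8 rose and 0 fell, with a median log2 value of 0.33. syt1a, which encodes a calcium sensor of vesicle fusion, stood at 128, 182, 289, 210.3 and 321 CPM against 88.1, 61.6, 72.1, 97.9 and 57 CPM (log2 1.48, adjusted p = 0.0157). nrxn3a, which encodes a presynaptic adhesion protein, stood at 49.4, 67.3, 108, 49 and 73.8 CPM against 20.1, 12, 17.6, 20.7 and 7.81 CPM (log2 2.07). Neither gene's ranges overlapped. The fusion genes cplx3b, stxbp1a and vamp2 rose by 2.7, 1.21 and 0.74, and the vesicle genes sypa and rab3ab by 0.88 and 0.93. Without cells above 20000 UMIs the list had 8 higher and 5 lower of 23, and without replicate 1 it had 10 and 4 of 23.

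Of 33 transmitter receptor genes in the files 11 had enough UMIs to be tested, of which 2 were higher and 1 lower (median log2 0.63). glra4b, a glycine receptor subunit gene, rose, with 12.3, 0, 14.2, 22.9 and 67.8 CPM against 4.81, 0, 0.586, 5.21 and 2.22 CPM (log2 3.03, adjusted p = 0.0257), and was highest in eGFP-enriched replicate 3 and without a UMI in mCherry-enriched replicate 2 in either set.

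Neuronal RNA-binding genes had 3 higher and 0 lower of 8, with a median log2 value of 0.76, and 6 higher and 1 lower without replicate 1. elavl3, the gene of the HuC protein that marks amacrine and ganglion cells, stood at 1319.9, 1412, 2131, 1567 and 2186 CPM against 833, 817, 916, 849.7 and 594 CPM (log2 1.02, adjusted p = 0.0127). The ranges did not overlap, and replicate 3 of both sorts was highest. celf5a and rbfox2, splicing regulators, rose by 2.49 and 1.28.

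Of 26 guidance and adhesion genes 7 rose and 1 fell, with a median log2 value of 0.03. Without cells above 20000 UMIs 8 were higher and 7 lower of 24, and without replicate 1 7 and 9 of 25. The higher genes were the secreted guidance genes slit1b (1.94 on the log2 scale) and slit2 (1.26), the semaphorin receptor gene plxna2 (1.77), the cell adhesion genes dscama (1.57), nfasca (1.39) and cdh7a (1.36), and the teneurin gene tenm4 (1.1). The lower one was ncam1a, a neural adhesion gene, at -0.76. nfasca stood at 165, 235, 283, 184 and 223 CPM against 106, 63.1, 71.5, 104 and 54.6 CPM, without overlap. Of 12 neurite cytoskeleton genes, stmn1b (0.68) and dpysl3 (0.86) rose and 0 fell, whereas without replicate 1, and also without cells above 20000 UMIs, 2 were higher and 5 lower.

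Other lists had few calls with all cells. Of 9 genes of cell cycle exit 0 were higher and 2 lower, but without cells above 20000 UMIs 0 and 8 and without replicate 1 0 and 5. Of 13 immediate early genes 1 was higher and 3 lower (median log2 -0.93), but without cells above 20000 UMIs 3 and 7 and without replicate 1 3 and 10. Of 17 genes of retinal position 0 were higher and 3 lower, of 10 genes of ribosome biogenesis 0 and 2, and of 5 calcium-binding protein genes none passed the test. Of 6 peptide and secretory granule genes the granule genes chgb (1.72) and scg5 (0.82) rose and scg3 (-0.61) fell.

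Outside the lists, the rule for the most raised genes added kctd15a, s1pr1, rnd1b and si:ch211-248l17.3. kctd15a, whose product represses AP-2 factors in zebrafish neural crest, stood at 128, 242, 379.7, 134 and 213 CPM against 34.3, 39.8, 18.2, 47 and 18.6 CPM (log2 2.69, adjusted p = 0.0109). It was higher in every library without overlap. s1pr1, a receptor gene for sphingosine-1-phosphate, rose by 1.96, the small GTPase gene rnd1b by 1.98 and si:ch211-248l17.3 by 2.03.

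Genes of dividing cells fell. Of 21 tested cell cycle genes 21 were lower and 0 higher, with a median log2 value of -1.94, and the count was 21 of 21 also without replicate 1 and without cells above 20000 UMIs. pcna, the clamp of DNA polymerase, stood at 128, 94.2, 128, 289 and 42.6 CPM in amacrine cells against 569, 430.3, 695, 664 and 697 CPM (log2 -2.44, SE 0.36, adjusted p = 0.0109). The values were apart in all libraries, and amacrine cells of eGFP-enriched replicate 1 were the highest among amacrine cells. mki67, a gene of cycling cells, stood at 318, 60.5, 68, 342 and 62.4 CPM against 821, 454, 629.9, 684 and 474 CPM (log2 -2.21).

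Of 18 tested genes of the Notch pathway, which keeps neighbours of a differentiating cell as progenitors or glia, 15 fell and 0 rose, with a median log2 value of -1.87. The ligand gene dla stood at 87.8, 20.2, 14.2, 70.1 and 9.41 CPM against 196, 62.3, 215, 161 and 128 CPM (log2 -2.18). The receptor gene notch3 stood at 90.6, 0, 11.3, 55.3 and 15.8 CPM against 284, 133, 165, 194 and 129 CPM (log2 -2.51), and the effector gene her6 at 4.12, 60.5, 0, 17.1 and 5.45 CPM against 49.3, 133, 73.3, 52.1 and 139 CPM (log2 -2.87). Amacrine cells were lower than the other cells of the same library for all 3. Their levels of dla and notch3 were highest in the replicate 1 libraries and that of her6 in mCherry-enriched replicate 2, and over libraries the ranges of dla and her6 overlapped.

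Markers of other classes were examined over whole lists. All 8 progenitor markers fell, as did 7 of 10 Müller glia markers, 5 of 8 stem cell markers and 3 of 10 photoreceptor markers, and 0 rose in these lists. Without replicate 1 the 10 photoreceptor markers and 9 of 10 Müller glia markers were lower, and without cells above 20000 UMIs 9 of 10 in each list. All 9 ganglion cell markers were lower without passing the test (median log2 -1.76), but without replicate 1 all 9 passed it and without cells above 20000 UMIs 8 did. rbpms2b, a ganglion cell gene, stood at 279.9, 0, 11.3, 261 and 14.4 CPM in amacrine cells against 319, 399.5, 338, 261 and 263 CPM (log2 -2.25, adjusted p = 0.122). In the replicate 1 libraries the 2 sets were close and in the rest far apart.

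Bipolar markers had 1 higher, the bHLH gene bhlhe23 at a log2 value of 0.52, and 0 lower of 12 (median log2 -0.56). Their summed level in amacrine cells was 5425, 5098, 1661, 3615 and 1121 CPM, against 4999, 4542, 3498, 4212 and 3207 CPM. vsx1, a homeobox gene of bipolar cells, stood at 1898, 1614, 485, 1125 and 237 CPM against 1781, 1458, 1072, 1363 and 902 CPM (log2 -0.67, adjusted p = 0.159). Amacrine cells were higher for vsx1 in mCherry-enriched replicates 1 and 2 and lower in the remaining 3 libraries. Without replicate 1 the list had 1 higher and 7 lower. With amacrine cells that held at least 3 markers of another class left out, 89 amacrine cells of 2 libraries remained in the fit. Of 9355 genes tested there, 308 were higher and 1563 lower. Of the 66 called genes followed across the settings 65 were fitted, of which 4 lost their call and 0 reversed. The removal was made among amacrine cells alone, and the other cells stayed whole. Its markers include followed genes such as pcna, mki67, foxn4 and notch3. That such genes stayed lower was therefore partly fixed in advance. The part of bipolar and other markers in the results of the remaining libraries was not tested.

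The 10 most lowered genes included genes of pigment and blood cells. The pigment genes pmela (-4.7 on the log2 scale), tyrp1b (-4.7) and dct (-4.24) and the globin genes hbae1.3 (-4.35), hbbe1.2 (-4.31), hbbe1.1 (-4.2), hbae3 (-4.03) and hbae1.1 (-3.86) fell, and so did the fatty acid binding protein genes fabp11a (-3.59) and fabp11b (-3.66). Globin genes are near-identical copies, so reads may be split between them. hbbe1.1 stood at 26.1, 390.1, 213, 14.3 and 0 CPM against 1564, 4968, 1200.5, 383 and 0.651 CPM and was highest in mCherry-enriched replicate 2 and lowest in eGFP-enriched replicate 3 in both sets. All 5 tested blood markers and all 4 pigment markers fell, whereas 0 of 8 horizontal cell, 3 lens, 2 mesenchyme and 5 epithelium markers passed the test. Without cells above 20000 UMIs 0 of 5 blood markers passed, their median log2 value moving from -3.95 to -1.06, and 3 of 3 lens, 2 of 2 epithelium, 1 of 2 mesenchyme and 1 of 8 horizontal cell markers were lower. Without replicate 1 the lower markers were 3 of 3 for lens, 3 of 7 for epithelium, 3 of 4 for mesenchyme and 3 of 7 for horizontal cells. With cells of tissues outside the retina left out of the comparison, tyrp1b (log2 1.295), hbae1.1 (0.84), hbae3 (0.28) and hbbe1.1 (0.21) reversed. These 4 genes are among the markers used to leave those cells out. The 82 amacrine cells with at least 3 such markers were kept, so the reversals follow from the choice of cells.

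Set against ganglion cells, the other early-born neurons of the inner retina, amacrine cells held more of tfap2a, gad2 and most amacrine fate factors and less of the neurite cytoskeleton genes. The 583 ganglion cells had 3 or more of isl2b, pou4f1, pou4f2, pou4f3, rbpms2a, rbpms2b and islr2 and fewer than 2 positive genes of the rule, and all 6 libraries entered the fit. Of 4660 genes tested outside both gates, 207 were higher in amacrine cells (4.44%) and 449 lower (9.64%), with a median of 0.01. Without eGFP-enriched replicate 3 the counts were 88 and 235, and without mCherry-enriched replicate 3, 123 were higher. Without cells above 20000 UMIs 278 of 3107 genes were higher (8.95%) and 430 lower (13.8%). In this comparison 6 values in a row also include eGFP-enriched replicate 2, before replicate 3, with 8 amacrine and 9 ganglion cells.

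tfap2a stood at 601, 646, 1423, 682, 1495 and 1315 CPM in amacrine and 14.9, 50.3, 22.4, 28.4, 0 and 11.3 CPM in ganglion cells (log2 5.36, adjusted p = 1.01e-05). The 2 sets were far apart in each library.

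pax6b was higher in amacrine cells, with 1357, 1499.9, 1564, 1198, 2379 and 1457 CPM against 928, 856, 1007, 685, 682 and 901 CPM (log2 0.79, SE 0.14, adjusted p = 0.00336), and the ranges did not overlap. pax6a, with 1227, 1096, 1621, 1261, 2169 and 1552 CPM against 875, 1066, 1156, 725, 771 and 1169 CPM, passed the test at a log2 value of 0.54 (adjusted p = 0.036) with overlapping ranges, but 6 of 12 alternative settings ended its call, among them leaving out replicate 1 or replicate 3 of either sort. tfap2d went the other way, with 46.6, 26.9, 19.8, 51.8, 0 and 25.3 CPM in amacrine cells against 175, 485, 196, 118, 237 and 282 CPM in ganglion cells (log2 -2.59).

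Of 27 tested fate factors 15 were higher in amacrine cells and 5 lower, with a median log2 value of 1.17. bhlhe22 stood at 392, 619, 808, 530.2, 821 and 1146 CPM against 102, 77.8, 79.6, 143, 59.3 and 32.8 CPM (log2 2.99), and prdm13 and scrt1a rose by 3.8 and 3.82. barhl2, which ganglion cells also use in mouse, rose less, with 402, 457, 533, 339, 927 and 641 CPM against 172, 137, 338, 160.2, 89 and 359 CPM (log2 1.17). gad2 stood at 56.3, 74, 204, 72.9, 105 and 155 CPM against 8.26, 0, 9.95, 7.21, 0 and 3.39 CPM (log2 4.09), and ganglion cells of mCherry-enriched and eGFP-enriched replicate 2 held no UMI. The rule also named efna1a, an ephrin ligand gene (3.94), kctd15a (3.75), s1pr1 (3.7) and the immediate early gene junba (3.92).

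All 11 tested neurite cytoskeleton genes were lower in amacrine cells, with a median log2 value of -2.07. stmn2b, which encodes a microtubule regulator of growing neurites, stood at 134, 20.2, 22.7, 119.8, 21.1 and 46.5 CPM in amacrine and 375, 975, 953, 371, 919 and 929.7 CPM in ganglion cells (log2 -3.34, adjusted p = 0.00164). gap43, a growth cone gene, stood at 196, 26.9, 22.7, 171, 21.1 and 54.5 CPM against 558, 1135, 1291, 692, 1038 and 1629 CPM (log2 -3.65). For both, the replicate 1 libraries had the highest amacrine and the lowest ganglion values. map1b was at -3.02, the intermediate filament genes inab and vim at -3.35 and -3.66, the axon adhesion genes alcama and alcamb at -4.17 and -3.81, and the Iroquois homeobox genes irx1a and irx2a at -3.6 and -3.85. zgc:158291 was the lowest named gene (-4.25). slc17a6b, the vesicular glutamate transporter gene of ganglion cells, was at -2.95.

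Other groups divided between the neurons. Guidance and adhesion genes had 6 higher and 7 lower of 19, and the higher ones included slit1b (3.21), slit2 (2.49), plxna2 (2.0) and nfasca (1.68). Vesicle release genes had 1 higher, nrxn3a, and 7 lower of 19. nrxn3a stood at 49.4, 67.3, 108, 49, 147 and 73.8 CPM against 6.6, 0, 7.46, 4.81, 0 and 5.65 CPM (log2 3.55). Neuronal RNA-binding genes had 1 higher and 4 lower of 8, elavl3 among the lower, with 1319.9, 1412, 2131, 1567, 1748 and 2186 CPM against 1882, 2864, 3213, 1523, 3737 and 3489 CPM (log2 -0.66, adjusted p = 0.00553); eGFP-enriched replicate 1 was the library in which amacrine cells were higher. Cell cycle genes had 0 higher and 5 lower of 18, and pcna was at -1.16. Bipolar markers had 5 higher and 1 lower of 12. Genes of ribosome biogenesis had 4 higher and 0 lower of 10, and without cells above 20000 UMIs 9 higher of 9.

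**Figure D3:**
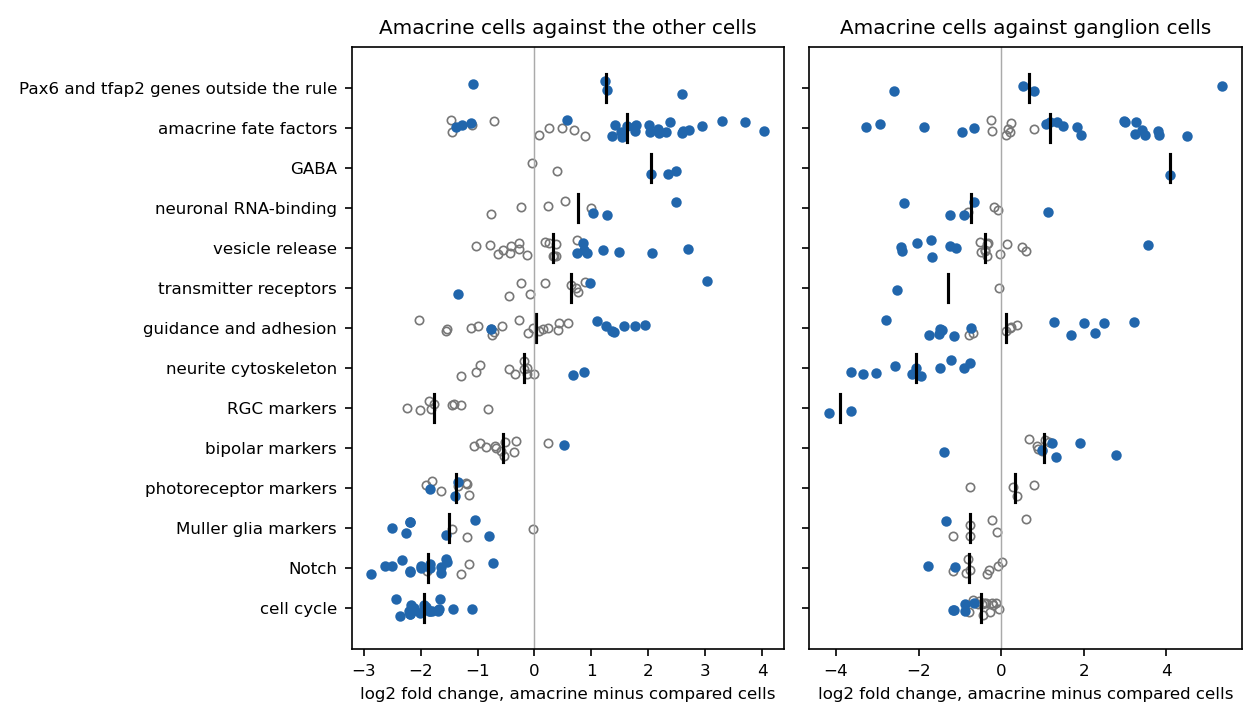
Log2 fold change of each tested gene by gene list, amacrine minus the other cells (left) and amacrine minus ganglion cells (right). Filled points passed an adjusted p of 0.05 in edgeR's test, open points did not, and black bars are list medians, such as 1.63 and 1.17 for amacrine fate factors and -0.18 and -2.07 for the neurite cytoskeleton.

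Within amacrine cells the transmitter genes divided the cells unevenly. gad1b or gad2 without slc6a9 was detected in 296 cells (46.3%), slc6a9 without either in 39 (6.1%), both kinds in 42 and none of them in 262. Per library, cells of the first kind numbered 21 of 42, 6 of 20, 32 of 60, 108 of 266, 3 of 8 and 126 of 243 in mCherry-enriched replicates 1 to 3 and eGFP-enriched replicates 1 to 3. After thinning to 2000 UMIs, a GABA-synthesis gene was found in 23.4% of 633 amacrine cells and slc6a9 in 3.79%, with 4 cells holding both. gad2 was found in 19.9% of thinned amacrine cells and in 0.526% of thinned photoreceptors, whereas slc6a9 was found in 3.79% and 1.84%, and in 4.59% of the other cells.

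The GABA-type cells were compared with the glycine-type cells in the 2 libraries with at least 5 cells of each, eGFP-enriched replicates 1 and 3 (234 and 34 cells). Of 6102 genes tested, 0 were higher in GABA-type cells and 3 lower (0.0492%), with 201 and 284 at an unadjusted p under 0.05 in edgeR. DESeq2 called 9 higher and 32 lower, and without cells above 20000 UMIs edgeR called 18 and 20. The 3 genes were icn and icn2, which encode S100-type proteins of fish epithelium, and zgc:175088. A single glycine-type cell held 705 of 713 UMIs of icn2 and 1409 of 1608 UMIs of icn. Over all libraries zgc:175088 was found in 7 of 39 glycine-type cells, with 98.4% of its 250 UMIs in 3 cells. In GABA-type cells icn stood at 1.79 and 10.2 CPM in eGFP-enriched replicates 1 and 3, against 450.4 and 11097 CPM in the glycine-type cells. No fate factor, of 33 tested, passed the test. All 7 tested Müller glia markers lay lower in GABA-type cells without passing the test (median log2 -2.04), and the median of the Notch genes was -1.60. The name glycine-type rests on slc6a9 alone. slc6a5, the glycine transporter of neurons, had 2 UMIs in all amacrine cells. The fit rests on 2 libraries and on few glycine-type cells.

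The pairs of genes found in the same cell are given as counts over the 633 thinned amacrine cells, which come from 6 libraries and share their depth. nr4a2a was found in 69 and nr4a2b in 84 cells, and 46 held both. gbx2 was found in 81 cells and lhx9 in 175, and 42 held both. Of 22 cells with ptf1a, 13 also held prdm13 and 0 held gad2, although prdm13 was found in 113 cells and gad2 in 126. Of 24 cells with slc6a9, 11 held prdm13. tfap2e, found in 230 cells, accompanied gad1b in 26 of 34 cells and slc6a1a in 29 of 43.

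Several transmitters of mature amacrine subtypes were barely detected in the cells that met the rule. th, th2 and slc6a3 of dopamine cells and tph1b of serotonin cells had no UMI in 639 cells, which allows a share of cells with a UMI of up to 0.469%. The acetylcholine genes chata, slc18a3a and slc5a7a had UMIs in 1, 4 and 1 cells and slc18a3b in 0. The rule keeps out cells with both sox2 and isl1, a pair known from acetylcholine-releasing amacrine cells of mouse. These 4 counts therefore cannot tell how common such cells are at this stage. Among peptides, vip, pdyn, penka, cart2, ccka, nppc and adcyap1a had none, npy was found in 2 cells, sst1.1, tac1 and penkb in 1 each, and crhb in 9 cells with 109 UMIs. adcyap1b was found in 64 cells (10.0%), against 52.5% of ganglion cells and 6.05% of photoreceptors. calb2b, a calretinin gene, was found in 208 cells, and after thinning in 16.6% of amacrine cells against 11.6% of photoreceptors. Its level did not pass the test (log2 0.43, adjusted p = 0.263). Counts this low cannot separate absence from shallow sampling.

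The reporters address in which cells the enhancers are active. eGFP, driven by NRE, had 373 UMIs in 138 of the 639 amacrine cells. Its level in amacrine cells was 31.6, 47.1, 51, 24.4 and 113 CPM, against 32.9, 2.25, 49.3, 16.1 and 38.1 CPM in the other cells. Amacrine cells were higher in 4 of 5 libraries, by little in mCherry-enriched replicate 3, and lower in mCherry-enriched replicate 1. The log2 fold change of 0.80 (SE 0.39) did not pass the test (adjusted p = 0.205). It did pass with every cell thinned to 2000 UMIs (log2 1.44, adjusted p = 0.00239), without cells above 20000 UMIs (log2 1.28, adjusted p = 0.0221) and without replicate 1 (log2 1.21, adjusted p = 0.0334). Over 20 alternative settings the log2 value ran from 0.447 to 1.44, with adjusted p values up to 0.55 (edgeR or DESeq2). Barcodes of at most 100 UMIs held eGFP at 30.4, 6.5, 49.4, 15.3, 9.8 and 41.8 CPM in mCherry-enriched replicates 1 to 3 and eGFP-enriched replicates 1 to 3. Those values move with the level in the other cells, and their part in the result was not tested.

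At an equal depth of 2000 UMIs, eGFP was found in 7.32, 5.26, 10.0, 4.96 and 14.0% of amacrine cells and in 2.75, 0.510, 3.19, 2.21 and 5.75% of the other cells. The thinned amacrine cells numbered 41, 19, 60, 262 and 243. Even before thinning, eGFP was found in 3 amacrine and 3 other cells of mCherry-enriched replicate 2. The thinned shares of that library, and so its direction, rest on very few cells. Amacrine cells were higher in 5 of 5 libraries, by a mean of 5.43 percentage points (p = 0.0625 in an exact permutation of signs over libraries, two-sided, which with 5 libraries goes no lower, also when adjusted over 4 genes). Pooled over libraries, the share was 9.0% in amacrine cells, 1.40% in ganglion cells and 1.84% in photoreceptors. Unthinned shares were 21.6% in amacrine cells, 15.2% in the other cells and 12.1% in photoreceptors. In the deeper cells with 3 or more positive genes that sox2 and isl1, or lhx1a, kept out of the rule, they were 39.4% and 50.0%, and after thinning 3.70% and 4.21%. Against the sox2 and isl1 cells eGFP did not pass the test (log2 0.57, adjusted p = 0.494, edgeR). tfap2a, pax6a and pax6b differed by 55.6, 37.1 and 28.8 points, each in 5 of 5 libraries with the same exact p. pax6a was found in 76.6% of thinned amacrine and 73.3% of thinned ganglion cells, and eGFP in 9.0% and 1.40%.

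**Figure D4:**
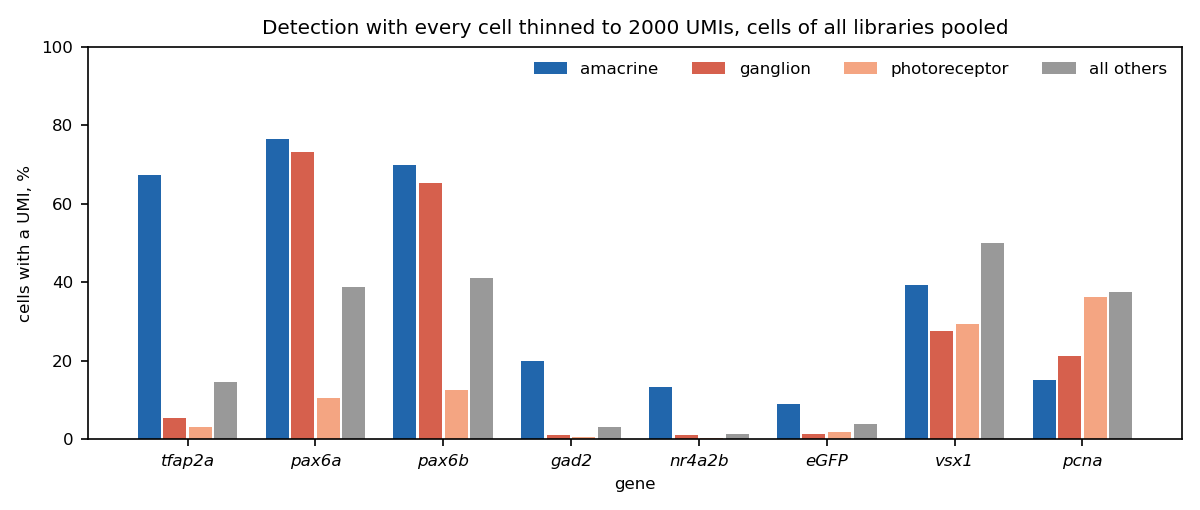
Share of cells with at least 1 UMI, in percent, after every cell was thinned to 2000 UMIs, for 8 genes in 633 amacrine, 570 ganglion, 380 photoreceptor and 4905 other cells pooled over libraries, with no error bars. pax6a and pax6b are found in similar shares of amacrine and ganglion cells (76.6% and 73.3% for pax6a), whereas tfap2a, gad2, nr4a2b and eGFP are found most often in amacrine cells.

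Against ganglion cells eGFP was higher in amacrine cells, with 31.6, 47.1, 51, 24.4, 0 and 113 CPM against 29.7, 0, 7.46, 5.29, 0 and 11.9 CPM (log2 2.22, SE 0.46, adjusted p = 0.00864). It was higher in 5 of 6 libraries, and the sixth, eGFP-enriched replicate 2, held no UMI in either set. Of 57 thinned amacrine cells with eGFP, 21 held gad2 and 15 held gbx2, pooled over libraries. The numbers of all thinned amacrine cells with gad2 or gbx2 are given above with the gene pairs. The levels of eGFP and gbx2 in amacrine cells were both highest in eGFP-enriched replicate 3. Whether these counts exceed what the libraries alone would give was not tested. mCherry, driven by HS5, had 6 UMIs in 5 of 639 amacrine cells (0.782%), too few to be tested. Of these cells 3, with 4 of the UMIs, were in mCherry-enriched replicate 1, and 1 each in mCherry-enriched replicate 3 and eGFP-enriched replicate 3. Pooled over libraries, the share was 2.05% in the other cells, 1.32% in photoreceptors and 0.343% in ganglion cells. The other cells include the deeper cells that sox2 and isl1, or lhx1a, kept out of the rule. In these it was 9.26% and 8.33% without thinning, and in mCherry-enriched replicate 1 it was 30.9% of the sox2 and isl1 cells. The eGFP-enriched gate took cells positive for eGFP alone, so pooled shares depend on the sort. In mCherry-enriched replicates 1 to 3 mCherry was found in 7.14, 0 and 1.67% of amacrine cells. The shares there were 14.1, 0.505 and 2.98% of the other cells and 2.70, 0 and 0% of ganglion cells. Barcodes of at most 100 UMIs held mCherry at 44.4, 2.77, 5.20, 20.5, 0 and 1.82 CPM in mCherry-enriched replicates 1 to 3 and eGFP-enriched replicates 1 to 3. Amacrine cells held it at 5.49, 0, 2.83, 0, 0 and 0.495 CPM. Their level lay at or below that of these barcodes in every library, as did that of the other cells. This difference was not tested.

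Between the sorts, amacrine cells showed few differences, and those that passed the test included keratin and collagen genes of skin and connective tissue. The fit set 3 mCherry-enriched libraries against eGFP-enriched replicates 1 and 3. Of 6105 genes tested, 0 were higher in mCherry-enriched libraries and 7 lower (0.115%), with 34 and 86 at an unadjusted p under 0.05 in edgeR. DESeq2 called 1 higher and 19 lower. The rule named the keratin gene krt91, the thymosin gene tmsb1, the collagen genes col1a2 and col1a1b, and the S100 protein gene s100a10b. The other 2 of the 7, col1a1a and the keratin gene krtt1c19e, were named after their values were seen. krt91 had no UMI in the mCherry-enriched libraries and stood at 573 and 708 CPM in eGFP-enriched replicates 1 and 3. Set against a floor of 3 counts over the sort, it was at least 254-fold lower in mCherry-enriched amacrine cells, col1a2 at least 96.0-fold, tmsb1 at least 90.9-fold, col1a1b at least 69.8-fold, s100a10b at least 57.4-fold and col1a1a at least 54.1-fold. krtt1c19e had 1 UMI in mCherry-enriched replicate 2.

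These UMIs sat in a handful of cells. Of 11023 UMIs of the 7 genes in amacrine cells, 90.5% were in 3 cells and 97.5% in 5. The 3 highest, 2 in eGFP-enriched replicate 1 and 1 in eGFP-enriched replicate 3, held 3734, 3167 and 3079 UMIs of these genes and more than 20000 UMIs each in all. Any UMI of the 7 genes was found in 185 amacrine cells, 143 of them in eGFP-enriched replicate 3. Without cells above 20000 UMIs the sort fit called 0 genes in either direction (44 and 40 at an unadjusted p under 0.05 in edgeR). Summed epithelium markers in amacrine cells were 2.74, 40.4, 31.2, 1751 and 4421 CPM and those of the other cells 3.82, 368, 68.9, 221 and 4868 CPM. The count of lower genes was 20 without eGFP-enriched replicate 1, 2 without eGFP-enriched replicate 3, 4 without mCherry-enriched replicate 2 and 1 without mCherry-enriched replicate 3.

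**Figure D5:**
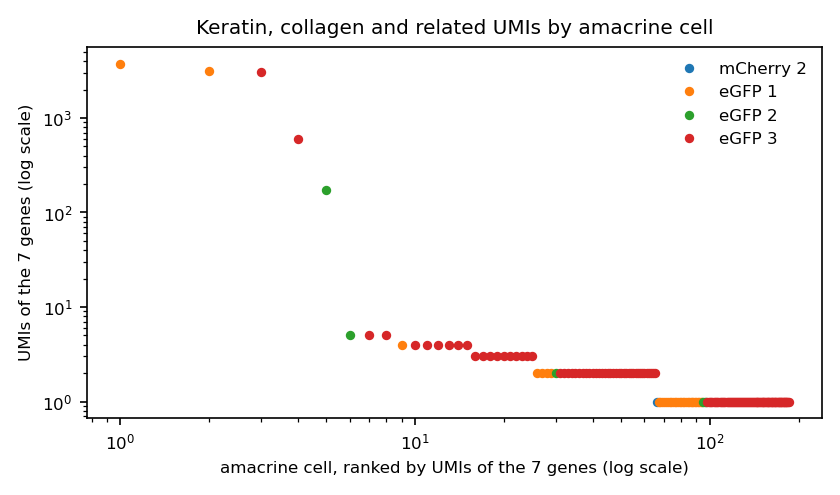
UMIs of the 7 genes that differed between the sorts in each of the 185 amacrine cells that carry any, ranked from highest to lowest, both axes on a log scale and points coloured by library. The 3 leftmost cells, with 3734, 3167 and 3079 UMIs, hold 90.5% of the 11023 UMIs.

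With the replicate number as a block, 24 genes were higher in mCherry-enriched amacrine cells (0.393%) and 51 lower (0.835%), 1.23% in all. This fit held 5 libraries. Since eGFP-enriched replicate 2 was left out, mCherry-enriched replicate 2 had no partner and added nothing to the difference between the sorts. The blocked values therefore rest on replicates 1 and 3 alone and leave little to estimate the spread from. Those named by the rule were the globin genes hbbe1.2 (3.61 on the log2 scale), hbbe1.1 (3.29), hbae1.3 (3.27), hbae3 (3.13) and hbbe1.3 (3.11) on the higher side and krt91, krtt1c19e, col1a2, tmsb1 and krt5 on the lower side. Bipolar markers had 4 higher and 0 lower of 12, with vsx1 at 0.88 (adjusted p = 0.00229). Summed blood markers in amacrine cells were 107, 1325, 609, 52.3 and 0.495 CPM, and in the other cells 4262, 14170, 3941, 1145 and 2.06 CPM. With the block and without cells above 20000 UMIs 1 gene was higher and 0 lower.

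No call was made between the sorts for the genes that set amacrine cells apart. tfap2a had a log2 difference, mCherry-enriched minus eGFP-enriched, of -0.15 (SE 0.44), pax6a of -0.08 (SE 0.20), pax6b of 0.17 (SE 0.16) and gad2 of -0.01 (SE 0.59), each with an adjusted p of 1.0. eGFP averaged 43.2 CPM in the mCherry-enriched and 68.6 CPM in the eGFP-enriched libraries (log2 -0.70, SE 0.66, adjusted p = 1.0), and without eGFP-enriched replicate 3 the log2 value was 0.79. These standard errors leave room for differences of a size the 5 libraries could not show. The contrast of amacrine against the other cells was also tested for a difference between the sorts, and 0 of 9846 genes passed in edgeR (27 and 73 at an unadjusted p under 0.05).

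The rule leaves out 2 sets of cells with 3 or more of its positive genes. Those with both sox2 and isl1, a pair known from the acetylcholine-releasing starburst amacrine cells of mouse, numbered 378 (68, 6, 12, 242, 4 and 46 in mCherry-enriched replicates 1 to 3 and eGFP-enriched replicates 1 to 3). Their median was 37109 UMIs, far above the 8013 of amacrine cells, and deep cells meet a condition on 2 detected genes more easily. In the fit of 5 libraries 0 of 4756 genes passed in either direction (226 and 313 at an unadjusted p under 0.05 in edgeR, 33 and 31 calls in DESeq2). Leaving out mCherry-enriched replicate 3 gave 64 higher and 92 lower in amacrine cells, leaving out mCherry-enriched replicate 2 gave 23 and 11, and leaving out eGFP-enriched replicate 3 gave 16 and 16.

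Without cells above 20000 UMIs, a comparison added after the data were seen, 548 amacrine cells stood against 128 cells with sox2 and isl1. Of 3009 genes tested 27 were higher in amacrine cells (0.897%) and 54 lower (1.79%). nr4a2b was higher, with 128, 60.5, 187, 135 and 301 CPM against 10.6, 0, 11.7, 48 and 62 CPM (log2 2.13, adjusted p = 0.00411), and the smallest gap was in eGFP-enriched replicate 1. Other higher genes were pou3f3b (2.11), the Id gene id2a (1.91), the eye field gene six3a (1.72), lhx9 (1.63), nhlh2 (1.35) and both IDs of meis2a. Of 26 fate factors 8 were higher and 1 lower.

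Of 8 cholinergic markers 3 were tested, and all 3 were lower in amacrine cells. The acetylcholine genes chata and slc18a3a, and megf10, rassf4a and foxn3, were not among those tested. rhocb, a small GTPase gene, stood at 25.6, 6.73, 6.02, 12.7 and 8.75 CPM against 53.1, 246, 211, 89.4 and 316 CPM (log2 -3.93, adjusted p = 0.00246), and the ranges did not overlap. tiam1a, a Rac exchange factor gene, was at -1.69 and the protocadherin gene pcdh19 at -1.73. The presynaptic gene nrxn1a stood at 55.4, 67.3, 120.3, 83.2 and 106 CPM against 74.3, 1016, 598, 301 and 998 CPM (log2 -2.55), and rbfox1 (-2.97), the cadherin gene fat1a (-2.97), arvcfb (-2.77), the transcription factor genes sox5 (-2.67) and fezf1 (-2.34) and the receptor gene ahr1b (-2.64) were also lower. pax6b was lower in amacrine cells than in these cells, with 1189, 1499.9, 1616, 1457 and 1514 CPM against 1200.0, 2617, 2497, 2269 and 3101 CPM (log2 -0.68, adjusted p = 0.0118), and the values of mCherry-enriched replicate 1 were nearly equal.

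The 96 cells left out by lhx1a, a LIM homeobox gene of horizontal cells, had a median of 73067.5 UMIs, and 84 of them came from eGFP-enriched replicate 1. They allowed no test. In that library tfap2a stood at 682 CPM in amacrine cells and 289 CPM in the lhx1a cells, the horizontal cell gene onecut1 at 61.1 and 111 CPM, pcna at 289 and 603 CPM and vsx1 at 1125 and 1264 CPM.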

How the data were processed

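Single-cell 3′ libraries of sorted zebrafish eye cells were read from the unfiltered gene-by-barcode matrices. The deposited values are counts of UMIs that the authors made with Cell Ranger (version 6.1.2 in the submitters' processing notes, although a header in the files names an earlier release) against GRCz11 with the reporters added; Seurat 4 was used in their later steps, which were not used here. Cells passed with at least 1000 genes and at most 10% UMIs from symbols starting with mt-. A floor of 3 counts was used for genes at 0.

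UMIs were summed per library and set of cells, and sets under 10 cells were left out. The minimum was 5 for transmitter types and for the comparisons with ganglion cells and with the cells kept out by sox2 and isl1 or by lhx1a. Genes kept by filterByExpr were tested with edgeR 4.0.16 (TMM, quasi-likelihood, Benjamini-Hochberg adjustment, R 4.3.3). Contrasts within libraries used the library as a block, and the sort was fitted without one. The 8 genes of the rule, and the gate genes of ganglion cells or transmitter types, were left out of the counts. Shares were compared by exact permutation, and cells of at least 2000 UMIs were thinned to that number for detection. Python 3.11.15 with numpy 2.4.6, pandas 2.3.3, scipy 1.17.1 and matplotlib 3.10.9 was used, and DESeq2 1.42.0 as an alternative. Other alternatives were the depth and mitochondrial limits, the number of rule genes, thinning, RLE factors, no filter and leaving out each library. The fits were tested on simulated data.

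A legend of the study describes 3 sorting rounds, and replicate numbers were taken to be these rounds, which the labels do not state. Deviations of same-numbered libraries from their sort correlated at 0.326, 0.1085 and 0.2406 over amacrine cells, so the numbers were taken to pair the libraries and the blocked fit is given beside the sort. The cells and gene lists were chosen with earlier results of these data known. All genes of a list were counted, and the values of some genes are not reported here. The genes named outside the lists were the 15 most raised and 10 most lowered called genes against the other cells, up to 5 per direction between the sorts and up to 8 in other comparisons, with the same direction in every library and at least 100 CPM on the higher side. Libraries are pools of embryos. For contrasts within libraries, p-values measure how the difference between sets of cells varies over libraries. For the sort, they measure the spread between libraries of the same sort. If replicate numbers are sorting rounds, same-numbered libraries may come from the same pool of embryos. Tests not paired by replicate number took all libraries as independent. Contrasts within libraries may therefore rest on fewer independent pools than libraries, which was not tested. Intervals cover counting error alone.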

Additional observations from a re-analysis of the deposited data

How the results depend on the processing

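The alternatives gave 1823 values of 110 results, each 1 gene in 1 comparison, so a gene followed in more than 1 comparison counts in each. Of these values 1649 kept their direction and side of the threshold, 154 lost the call, 16 gained one and 4 reversed. The 4 reversals came with cells from outside the retina left out of the comparison (hbae1.1 0.84, hbae3 0.28, hbbe1.1 0.21 and tyrp1b 1.295 on the log2 scale). Such cells were left out by markers that include these 4 genes, and from the other cells alone. eGFP against the other cells and between the sorts is not among the 110 and is given below. Against the other cells the counts were 30 to 331 higher and 61 to 916 lower when 1 library was left out, 773 and 1494 without cells above 20000 UMIs and 699 and 1650 without replicate 1. Lower genes numbered 2029 without a filter on low counts and 1370 with at least 4 rule genes. They numbered 1563 without amacrine cells of mixed markers (2 libraries, the other cells left whole), and higher genes 279 after thinning. eGFP passed the test at log2 values of 1.28 without cells above 20000 UMIs, 1.44 after thinning and 1.21 without replicate 1. Over all 20 alternatives its log2 value ran from 0.447 to 1.44, with adjusted p values up to 0.55 (edgeR or DESeq2). Against ganglion cells the counts were 527 and 914 without a filter, 69 and 160 after thinning, and 88 to 192 higher and 235 to 505 lower when 1 library was left out.

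Between the sorts lower genes numbered 16 with at least 500 genes a cell, 0 with at least 4 rule genes, 0 without cells above 20000 UMIs, 3 without a filter, 14 without a minimum of cells and 1 to 20 when 1 library was left out. DESeq2 called 1 and 19, the replicate block 24 and 51, the block with no minimum of cells 17 and 33, and the block without cells above 20000 UMIs 1 and 0. The eGFP difference turned to 0.0361 with at least 2 rule genes and ran from -1.45 to 0.79 when 1 library was left out. The share difference was -4.83 points with at least 2 rule genes and -3.19 with at least 1500 genes, and turned to 0.735 points with at least 500 genes, 3.37 without cells from outside the retina, 0.505 with sox2 and isl1 cells counted in, and ran from -1.71 to 0.15 when 1 library was left out. The exact permutation tests on shares can go no lower than p = 0.25 with the replicate block and p = 0.1 without it. Neither can reach the threshold used for genes, so whether the block changes a call on shares cannot be told. For GABA-type against glycine-type cells the counts were 9 and 32 in DESeq2, 62 and 187 without a filter, 29 and 162 with at least 2 UMIs and 18 and 20 without cells above 20000 UMIs, and no library could be left out. For sox2 and isl1 cells they were 27 and 54 without cells above 20000 UMIs, 33 and 31 in DESeq2, 269 and 242 without a filter, and 0 to 64 higher and 0 to 92 lower when 1 library was left out. The cause was not tested. Leaving out replicate 1, and leaving out deep cells against the sox2 and isl1 cells, were chosen after the data were seen.

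The mCherry-enriched libraries, with 20 to 60 amacrine cells, and eGFP-enriched replicate 2, with 8, limit the precision, and depth limits transmitters and peptides that are found in few cells.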
